A study of Homo sapiens with 42 samples.

Results

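Epithelial-state and mesenchymal-state genes were followed in 2 human lung cancer cell lines, H460 and H1299, before and after 2 Gy of gamma radiation. The list of 47 genes covers the junctions, keratins and regulators of epithelial cells and the cadherins, transcription factors, matrix and surface proteins of mesenchymal cells. A gene was taken from the table where 1 row carried its symbol alone, and where several rows did, the brightest of them across the 42 arrays was used. In this way 45 of the 47 genes were found among the 18404 genes tested, 27 of them epithelial and 18 mesenchymal. No level is given for OCLN and ESRP1, and OCLN enters only the promoter count.

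H460 is a large-cell lung carcinoma line that the study calls radiosensitive, and H1299 is a lung carcinoma line that it calls radioresistant. Exponentially growing monolayers of both received the same dose, and total RNA was taken before irradiation (0 h) and at 2, 4, 8, 12 and 24 h after it. Each line had 6 arrays at 0 h and 3 at every later time, which the labels call biological replicates and which makes 21 arrays per line. The lines carry no other treatment in the labels. With 1 line of each kind, radiosensitivity cannot be told apart from anything else in which H460 and H1299 differ. No array was labelled as unirradiated after 0 h, so that irradiation cannot be told apart from time in culture in any change given here. The protocol mentions control cells without irradiation, and whether arrays labelled 0 h held such cells at later times was not given.

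An epithelial cell is held to its neighbours by E-cadherin at adherens junctions, by desmosomes anchored to keratin filaments, and by tight junctions made of claudins. In the transition toward a mesenchymal state, zinc finger factors (ZEB1, ZEB2, SNAI1, SNAI2) and TWIST factors turn such genes down, and vimentin filaments, N-cadherin, fibronectin and surface proteins such as AXL become prominent. Carcinoma cells often stand between the ends of this range, and in lung cancer lines a mesenchymal pattern has often been linked to drug resistance. The zinc finger factors bind a box with the letters CACCTG, read as CAGGTG on the opposite strand.

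The promoters below are shown because their genes carry the patterns described further on, and the capitals mark each such box on either strand. Each window holds 300 bases around the annotated start in RefSeq (GRCh38.p14), most of them upstream. JUP (chr17:41785927-41786226, minus strand) and DSG2 (chr18:31497927-31498226, plus strand) are desmosome genes whose levels rose late in H460. CLDN7 (chr17:7262429-7262728, minus strand) is a claudin gene with 5 boxes, the most of any window of these genes, and RAB25 (chr1:156060910-156061209, plus strand) is an epithelial gene that was dim in both lines. AXL (chr19:41218973-41219272, plus strand) is 1 of the 3 mesenchymal genes with a box in any window, of 12 with a window. The boxes number 2 in JUP, 2 in DSG2, 5 in CLDN7, 2 in RAB25 and 1 in AXL, while a second window each of JUP, CLDN7 and AXL held 0.
JUP: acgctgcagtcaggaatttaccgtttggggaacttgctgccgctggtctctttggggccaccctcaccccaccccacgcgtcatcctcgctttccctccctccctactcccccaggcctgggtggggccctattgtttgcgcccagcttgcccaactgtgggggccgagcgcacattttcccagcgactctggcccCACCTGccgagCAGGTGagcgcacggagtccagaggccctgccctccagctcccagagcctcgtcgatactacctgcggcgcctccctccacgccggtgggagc
DSG2: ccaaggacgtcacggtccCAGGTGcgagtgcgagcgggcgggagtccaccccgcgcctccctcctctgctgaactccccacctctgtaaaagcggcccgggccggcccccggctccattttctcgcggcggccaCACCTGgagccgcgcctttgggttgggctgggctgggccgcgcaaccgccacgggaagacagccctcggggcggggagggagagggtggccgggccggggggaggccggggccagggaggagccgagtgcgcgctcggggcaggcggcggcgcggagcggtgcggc
CLDN7: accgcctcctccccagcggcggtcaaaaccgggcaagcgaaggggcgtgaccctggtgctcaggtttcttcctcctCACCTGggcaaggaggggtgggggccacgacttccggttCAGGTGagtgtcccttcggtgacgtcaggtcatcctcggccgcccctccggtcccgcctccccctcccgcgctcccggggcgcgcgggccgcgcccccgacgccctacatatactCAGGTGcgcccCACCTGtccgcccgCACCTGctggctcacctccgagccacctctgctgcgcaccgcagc
RAB25: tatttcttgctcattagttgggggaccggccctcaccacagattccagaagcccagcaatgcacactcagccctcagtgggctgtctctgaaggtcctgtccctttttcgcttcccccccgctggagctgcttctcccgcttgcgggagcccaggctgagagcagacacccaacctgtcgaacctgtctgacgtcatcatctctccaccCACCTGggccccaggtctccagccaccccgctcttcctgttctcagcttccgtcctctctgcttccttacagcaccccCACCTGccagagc
AXL: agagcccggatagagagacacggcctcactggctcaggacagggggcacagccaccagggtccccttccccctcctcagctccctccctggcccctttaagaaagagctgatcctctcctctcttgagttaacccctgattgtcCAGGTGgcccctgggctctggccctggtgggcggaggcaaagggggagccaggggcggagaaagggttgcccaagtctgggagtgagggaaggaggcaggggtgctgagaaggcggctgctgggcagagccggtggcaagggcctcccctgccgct

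Windows were available for 26 of the 47 listed genes. The box was present in at least 1 window of 11 of the 14 epithelial genes (78.6%) and of 3 of the 12 mesenchymal genes (25.0%), beside 24.1% of the 27305 genes with a window. Counted over windows, it stood in 12 of 21 epithelial windows (57.1%) and 5 of 22 mesenchymal windows (22.7%), beside 20.6% of all 35116 windows, and 3.49% of all windows held 2 or more. A gene with several annotated starts has more windows in which a box can fall. A match is a run of letters and no evidence of binding, and CDH1, KRT18, KRT19, CDH11 and SNAI2 had no window. Some of these genes are near neighbours in the genome: no other protein-coding gene lies between KRT8 and KRT18, CDH3 and CDH1, or CLDN3 and CLDN4, while 7 lie between KRT19 and JUP, 4 between DSC2 and DSG2 and 1 between CDH2 and DSC2.

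Levels are log2 array intensities as deposited, so a difference of 1 is a factor of 2. They came without detection calls, and levels of different genes are not compared. A difference against a level in the dim range below is given as measured on the log2 scale, with no fold, since signal over background is unknown there. In 15 of the 45 genes the highest group mean did not exceed 5.59, a level that 33.3% of all genes do not exceed either. These were 11 epithelial genes (CDH1, CDH3, EPCAM, ESRP2, GRHL2, OVOL1, ELF3, RAB25, ST14, ITGB4 and ITGB6) and 4 mesenchymal genes (SNAI1, SPARC, TAGLN and THY1). The array width, the interquartile range of all genes on an array, averaged 3.34, 2.84, 3.345, 3.64, 3.67 and 3.64 in H460 at 0, 2, 4, 8, 12 and 24 h. In H1299 it averaged 3.58, 3.53, 3.66, 3.81, 3.82 and 3.67 at the same times. H460 arrays at 2 h were thus on average the narrowest and those of H1299 at 8 and 12 h the widest. Within H460, arrays at 8, 12 and 24 h were on average wider than those at 0 h. On a narrower array dim genes read higher and bright genes lower relative to the array's median. Each called change of the 45 genes was therefore also computed after quantile normalization and with the array width as a term of the model. The second of these has little left to estimate where width and time run together, as at 2 h in H460.

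Before irradiation more epithelial genes were higher than lower in H460, and more mesenchymal genes were lower than higher there. Members of both states also went the other way. Higher in H460 were 3 of the 4 keratins, 4 of the 6 desmosome genes and 4 of the 6 tight junction genes measured, but also CDH11, FN1, SNAI2, ZEB2 and SNAI1. Lower in H460 were CDH2, AXL, NT5E, LOX, ZEB1, TWIST1, VIM, TAGLN, SPARC and CD44, and with them DSP, TJP1, PKP2 and ITGB4. In all, 32 of the 45 genes passed the test between lines (limma, Benjamini-Hochberg adjusted p under 0.05 over all genes), 18 higher and 14 lower in H460. Among all genes tested 55.1% passed, 26% higher and 29.1% lower. Of the epithelial genes 13 were higher, 4 lower and 10 did not pass, and of the mesenchymal genes 5 were higher, 10 lower and 3 did not pass. The median difference was 0.24 over the epithelial genes, -0.56 over the mesenchymal genes and 0.07 over all genes. The 6 arrays of H460 and the 6 of H1299 did not overlap in 27 of the 45 genes, against 35.3% of all genes, and 18 genes differed by at least 1 and passed, against 13.8% of all genes. In such cultures fewer cells with a transcript and less of it per cell cannot be told apart.

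**Figure D1:**
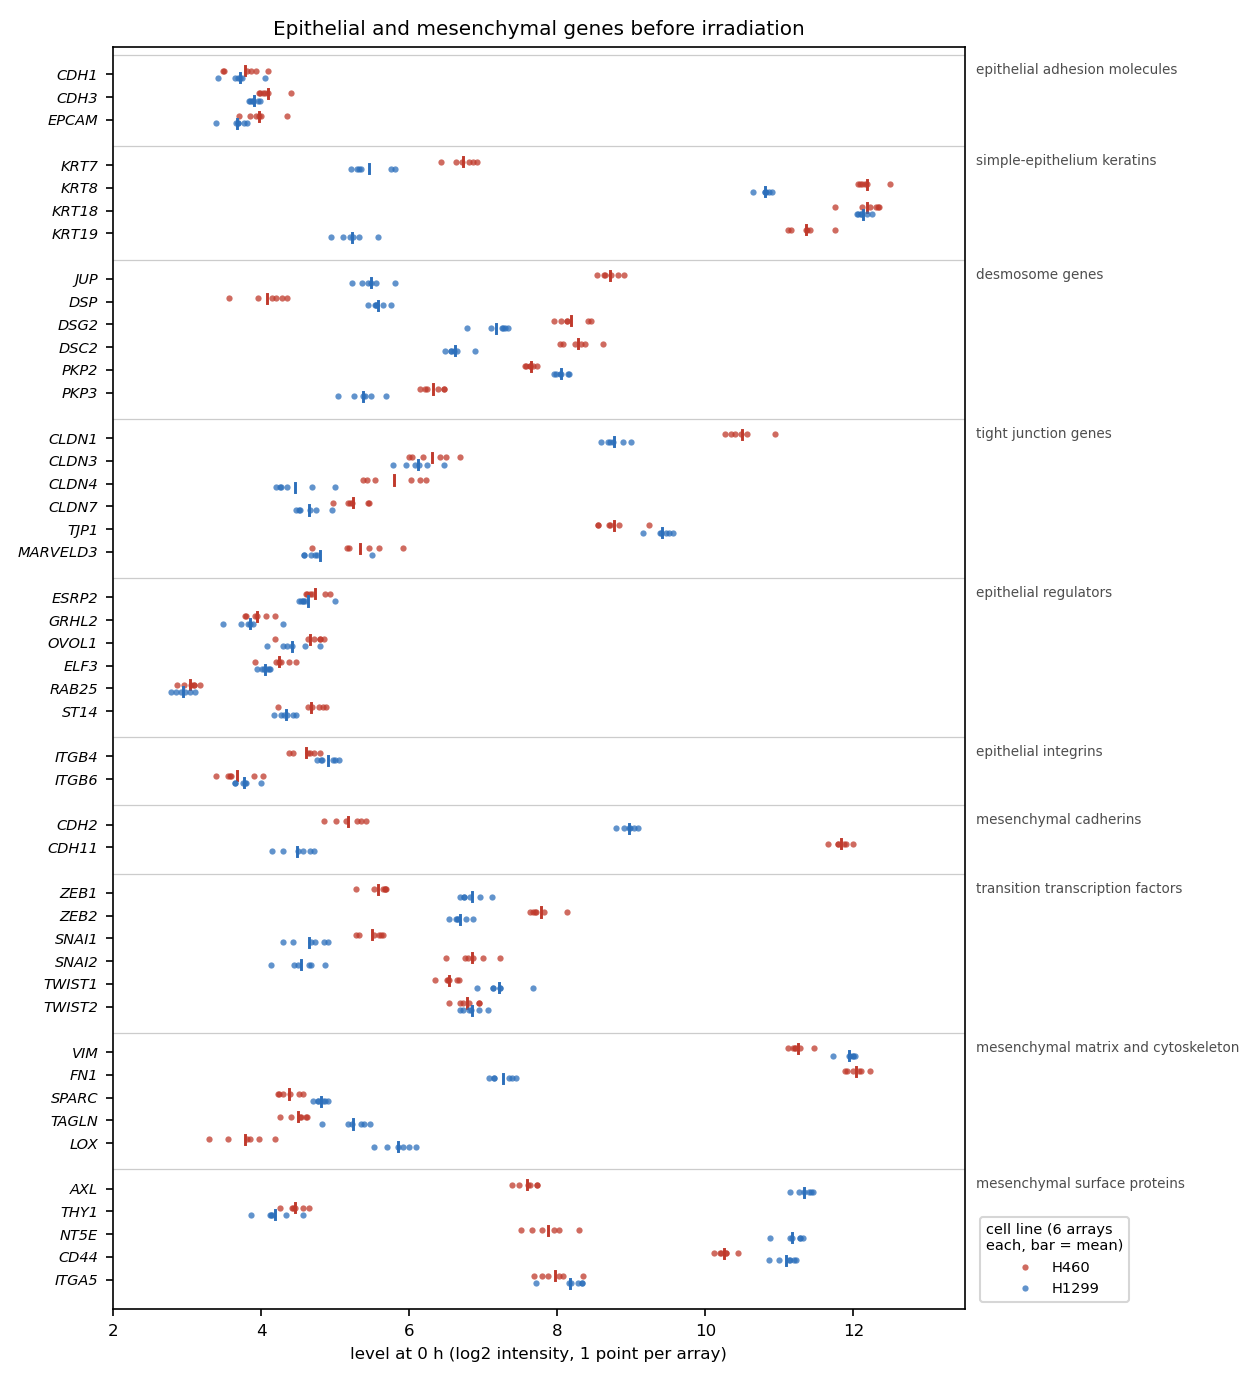
Level of each gene at 0 h in log2 intensity on the x axis, with genes grouped by role on the y axis, 1 point per array (6 per line) and a bar at the mean. The lines lie far apart in CDH11, KRT19, FN1, CDH2, AXL, NT5E and JUP, while CDH1, EPCAM and the epithelial regulators lie close together at low levels in both.

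The epithelial adhesion molecules were dim in both lines. CDH1, which encodes E-cadherin, had a lowest level of 3.49, a median of 3.84 and a highest of 4.09 in H460, against 3.43, 3.70 and 4.06 in H1299. Its arrays overlapped, and the difference of 0.07 ± 0.12 (model standard error, 6 arrays each) did not pass (adjusted p = 0.633). CDH3, which encodes P-cadherin, averaged 4.09 ± 0.16 in H460 and 3.90 ± 0.06 in H1299 (SD, n = 6 each) and did not pass either (adjusted p = 0.0973). EPCAM, the epithelial cell adhesion molecule, averaged 3.97 ± 0.22 in H460 and 3.67 ± 0.15 in H1299 (SD, n = 6 each). It was higher in H460 by 0.30 ± 0.11 (adjusted p = 0.0276), a call that ended after quantile normalization (adjusted p = 0.166), without H460 0 h replicate 4 (0.0758) and without H1299 0 h replicate 1 (0.0776). A second row for EPCAM gave 0.50 ± 0.20 (adjusted p = 0.0541).

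Simple-epithelium keratins form the filaments of glandular and airway epithelium. KRT19 had a lowest level of 11.12, a median of 11.37 and a highest of 11.75 in H460, against 4.94, 5.23 and 5.58 in H1299. The lowest H460 array thus stood far above the highest H1299 array, a difference of 6.13 ± 0.11 (adjusted p = 1.44e-19). KRT8 averaged 12.18 ± 0.16 in H460 and 10.81 ± 0.09 in H1299 and KRT7 6.73 ± 0.18 in H460 and 5.46 ± 0.25 in H1299 (SD, n = 6 each), both higher in H460, by 1.38 ± 0.077 (adjusted p = 5.36e-12) and 1.27 ± 0.12 (adjusted p = 1.75e-08). KRT18, the partner with which KRT8 forms filaments, averaged 12.18 ± 0.23 in H460 and 12.12 ± 0.08 in H1299, and its difference of 0.05 ± 0.090 did not pass (adjusted p = 0.63). KRT18 has many near-identical pseudogene copies that its probes could share, and a second, dimmer row gave 0.13 ± 0.083 (adjusted p = 0.233). KRT8 and KRT18 were bright in both lines, and KRT19 was bright in H460 but not in H1299.

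Desmosomes tie keratin filaments to the membrane, and all 6 desmosome genes among the 45 passed between the lines, beside 55.1% of all genes. JUP, which encodes plakoglobin, the catenin shared by desmosomes and adherens junctions, had a lowest level of 8.54, a median of 8.68 and a highest of 8.90 in H460, against 5.23, 5.46 and 5.81 in H1299. The arrays were far apart, with a difference of 3.23 ± 0.098 (adjusted p = 3.2e-16). DSC2, a desmosomal cadherin, had 8.04, 8.28 and 8.62 as lowest, median and highest level in H460, against 6.48, 6.59 and 6.90 in H1299, and was higher by 1.65 ± 0.10 (adjusted p = 1.98e-11). DSG2, the other desmosomal cadherin among the 45 genes, was higher by 1.02 ± 0.11 and PKP3, a plakophilin of the plaque, by 0.95 ± 0.11 (adjusted p = 7.64e-08 and 3.11e-07). DSP, which encodes desmoplakin, the link to the filaments, went the other way: its lowest, median and highest levels were 3.57, 4.18 and 4.36 in H460, against 5.45, 5.55 and 5.76 in H1299, a difference of -1.50 ± 0.12 (adjusted p = 1.99e-09). PKP2 was also lower in H460, by a smaller -0.41 ± 0.070 (adjusted p = 4.01e-05). The 2 cadherins and plakoglobin were thus higher and the filament linker lower in H460, with no overlap of arrays in any of the 6 genes (of all genes 35.3% did not overlap).

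Among the tight junction genes CLDN1, a barrier-forming claudin, had a lowest level of 10.26, a median of 10.44 and a highest of 10.94 in H460, against 8.59, 8.73 and 8.99 in H1299, and was higher by 1.73 ± 0.10 (adjusted p = 1.02e-11) with no overlap. CLDN4 averaged 5.79 ± 0.38 in H460 and 4.46 ± 0.32 in H1299 and CLDN7 5.25 ± 0.18 in H460 and 4.65 ± 0.18 in H1299 (SD, n = 6 each), higher by 1.33 ± 0.17 and 0.60 ± 0.11 (adjusted p = 1.06e-06 and 0.00014). CLDN3, the neighbour of CLDN4, averaged 6.31 ± 0.27 in H460 and 6.11 ± 0.23 in H1299 and did not pass (adjusted p = 0.217). TJP1, which encodes the scaffold ZO-1, averaged 8.76 ± 0.25 in H460 and 9.41 ± 0.14 in H1299 and was lower in H460 by -0.65 ± 0.10 (adjusted p = 2.16e-05). MARVELD3, a membrane protein of the tight junction, averaged 5.33 ± 0.42 in H460 and 4.80 ± 0.35 in H1299. Its difference of 0.53 ± 0.18 passed (adjusted p = 0.0184), but was 0.02 with array width in the model (adjusted p = 0.891), and the adjusted p was 0.0548 without H460 0 h replicate 5.

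The epithelial regulators were at low levels in both lines. GRHL2, OVOL1 and ELF3 are transcription factors of epithelial cells, ESRP2 controls their splicing pattern, RAB25 is a GTPase of their membrane recycling and ST14 is the membrane protease matriptase. Their means lay between 3.04 (RAB25) and 4.73 (ESRP2) in H460 and between 2.94 (RAB25) and 4.63 (ESRP2) in H1299. Only ST14 of the 6 passed, higher in H460 by 0.34 ± 0.11 (adjusted p = 0.0145), and not with array width in the model (adjusted p = 0.287). Differences of the other 5 ran from 0.10 (RAB25) to 0.24 (OVOL1), with adjusted p between 0.111 (ELF3) and 0.482 (GRHL2). Of the epithelial integrin genes, ITGB4 averaged 4.61 ± 0.16 in H460 and 4.90 ± 0.12 in H1299 and was lower in H460 by -0.30 ± 0.10 (adjusted p = 0.0201), with an adjusted p of 0.055 without H460 0 h replicate 3 and 0.0503 without H1299 0 h replicate 4. ITGB6 averaged 3.68 ± 0.24 in H460 and 3.77 ± 0.13 in H1299 and did not pass (adjusted p = 0.475).

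The mesenchymal cadherins were split between the lines. CDH11, a cadherin of mesenchymal and bone-forming cells, had a lowest level of 11.66, a median of 11.83 and a highest of 11.99 in H460, against 4.15, 4.54 and 4.71 in H1299. The measured difference was 7.35 ± 0.096 (adjusted p = 1.24e-21). CDH2, which encodes N-cadherin, had 4.85, 5.22 and 5.42 in H460, against 8.80, 8.98 and 9.09 in H1299 as lowest, median and highest level, a difference of -3.78 ± 0.099 (adjusted p = 3.22e-17). H460 was thus high in cadherin-11 and H1299 in N-cadherin, with E-cadherin and P-cadherin transcripts dim in both.

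The transition transcription factors were split in the same manner, with different members high in each line. SNAI2, which encodes SLUG, had a lowest level of 6.49, a median of 6.83 and a highest of 7.23 in H460, against 4.14, 4.58 and 4.87 in H1299, a difference of 2.31 ± 0.13 (adjusted p = 6.63e-12) with no overlap. ZEB2 averaged 7.78 ± 0.18 in H460 and 6.69 ± 0.12 in H1299 and SNAI1, which encodes SNAIL, 5.50 ± 0.15 in H460 and 4.65 ± 0.24 in H1299 (SD, n = 6 each), both higher in H460, by 1.10 ± 0.093 and 0.85 ± 0.12 (adjusted p = 3.37e-09 and 3.49e-06). A second row for ZEB2 gave 0.50 ± 0.14 (adjusted p = 0.0115). ZEB1 averaged 5.58 ± 0.16 in H460 and 6.85 ± 0.16 in H1299 and TWIST1 6.54 ± 0.12 in H460 and 7.22 ± 0.25 in H1299, both lower in H460, by -1.26 ± 0.10 and -0.68 ± 0.11 (adjusted p = 1.44e-09 and 2.01e-05). TWIST2 averaged 6.78 ± 0.16 in H460 and 6.84 ± 0.14 in H1299 and did not pass (adjusted p = 0.558). The paralogs ZEB1 and ZEB2 therefore ran in opposite directions between the lines.

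FN1, which encodes the matrix protein fibronectin, had a lowest level of 11.89, a median of 12.04 and a highest of 12.22 in H460, against 7.09, 7.25 and 7.45 in H1299, and was higher by 4.77 ± 0.082 or 27.3-fold (adjusted p = 5.99e-20). The other 4 matrix and cytoskeleton genes were lower in H460. LOX, the collagen-crosslinking lysyl oxidase, had 3.30, 3.83 and 4.18 in H460, against 5.53, 5.89 and 6.09 in H1299 as lowest, median and highest level, a difference of -2.07 ± 0.14 (adjusted p = 8.59e-11). VIM, the mesenchymal filament vimentin, was bright in both lines, with means of 11.25 ± 0.12 in H460 and 11.94 ± 0.11 in H1299 (SD, n = 6 each), and lower in H460 by -0.69 ± 0.073 (adjusted p = 8.64e-08). TAGLN, the actin-binding transgelin, and SPARC, a matrix glycoprotein, were lower by -0.75 ± 0.12 and -0.44 ± 0.096 (adjusted p = 1.39e-05 and 0.000632). Bright vimentin beside bright KRT8 and KRT18 was common to both lines.

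Among the surface proteins, AXL, a receptor tyrosine kinase for GAS6, had a lowest level of 7.39, a median of 7.62 and a highest of 7.73 in H460, against 11.14, 11.37 and 11.45 in H1299, and was lower by -3.74 ± 0.078, a factor of 13.4 (adjusted p = 9.11e-19). NT5E, which encodes the ectonucleotidase CD73, had 7.51, 7.88 and 8.30 in H460, against 10.87, 11.22 and 11.31 in H1299 as lowest, median and highest level, and was lower by -3.30 ± 0.11 (adjusted p = 1.65e-15). The arrays of the 2 lines were widely separated in both genes. CD44, the hyaluronan receptor, averaged 10.26 ± 0.11 in H460 and 11.09 ± 0.14 in H1299 and was lower in H460 by -0.84 ± 0.076 (adjusted p = 9.04e-09). THY1, which averaged 4.46 ± 0.13 in H460 and 4.19 ± 0.23 in H1299, and ITGA5, the fibronectin receptor subunit, which averaged 7.97 ± 0.23 in H460 and 8.17 ± 0.24 in H1299, did not pass (adjusted p = 0.0528 and 0.156). Of the 32 calls at 0 h, 29 were also made both after quantile normalization and with array width in the model, EPCAM, MARVELD3 and ST14 being the exceptions.

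After irradiation the genes of these states moved by less than the lines differed: the median absolute change of the 45 genes was between 0.12 (H1299 at 2 h) and 0.27 (H460 at 2 h), and their median absolute difference between lines at 0 h was 0.69. The changes in H460 that also passed after quantile normalization and with array width in the model were a late rise of JUP and FN1, a fall of PKP2 at 4 and 12 h, a fall of CLDN1 at 4 h and a fall of SNAI2 and CD44 at 24 h. In H1299 the rises that did so were of ZEB1 and NT5E over most of the day and of DSG2 at 4 and 24 h. TJP1 at 4 h and VIM and ITGA5 at 24 h rose there too. The falls that did so in H1299 were of TWIST2 from 4 to 12 h and of CDH2 at 8 h. At 2 h they were of KRT8, SNAI1, TAGLN and ITGA5. A quadratic curve over hours, the analysis named in the study's design, passed for 19 of the 45 genes in H460 and for 15 in H1299, with 7 in both and 18 in neither. Over all genes 41.9% passed in H460 and 36.5% in H1299, and of the 18404 genes 3408 passed in both and 7381 in neither. The 45 genes thus passed about as often as genes at large. The courses differed between the lines in 9 of the 45 genes, beside 16.7% of all genes. Changes at different times share the 6 arrays at 0 h of their line.

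Counted at each time against 0 h in H460, at 2 h, 6 rose and 9 fell (of all genes 16.7% and 23.7%, 40.4% in all), at 4 h, 0 rose and 2 fell (of all genes 1.37% and 1.55%, 2.92% in all) and at 8 h, 1 rose and 4 fell (of all genes 10.7% and 6.22%, 16.9% in all). Later in H460, at 12 h, 6 rose and 8 fell (of all genes 16.7% and 16.8%, 33.5% in all) and at 24 h, 9 rose and 7 fell (of all genes 16.2% and 12.4%, 28.7% in all). In H1299 at 2 h, 1 rose and 4 fell (of all genes 5.88% and 7.93%, 13.8% in all), at 4 h, 3 rose and 2 fell (of all genes 10% and 5.83%, 15.9% in all) and at 8 h, 7 rose and 6 fell (of all genes 15% and 9.54%, 24.6% in all). Later in H1299, at 12 h, 9 rose and 6 fell (of all genes 16.6% and 13.1%, 29.7% in all) and at 24 h, 5 rose and 0 fell (of all genes 8.53% and 3.21%, 11.7% in all). H460 thus had most calls at 2, 12 and 24 h and H1299 at 8 and 12 h, among these genes as among all genes. The median change over the 27 epithelial genes lay between -0.17 (12 h) and 0.11 (2 h) in H460, and over the 18 mesenchymal genes between -0.12 (2 h) and 0.03 (12 h). Over all genes the H460 medians were -0.01 at 2 h and -0.04 at 12 h.

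**Figure D2:**
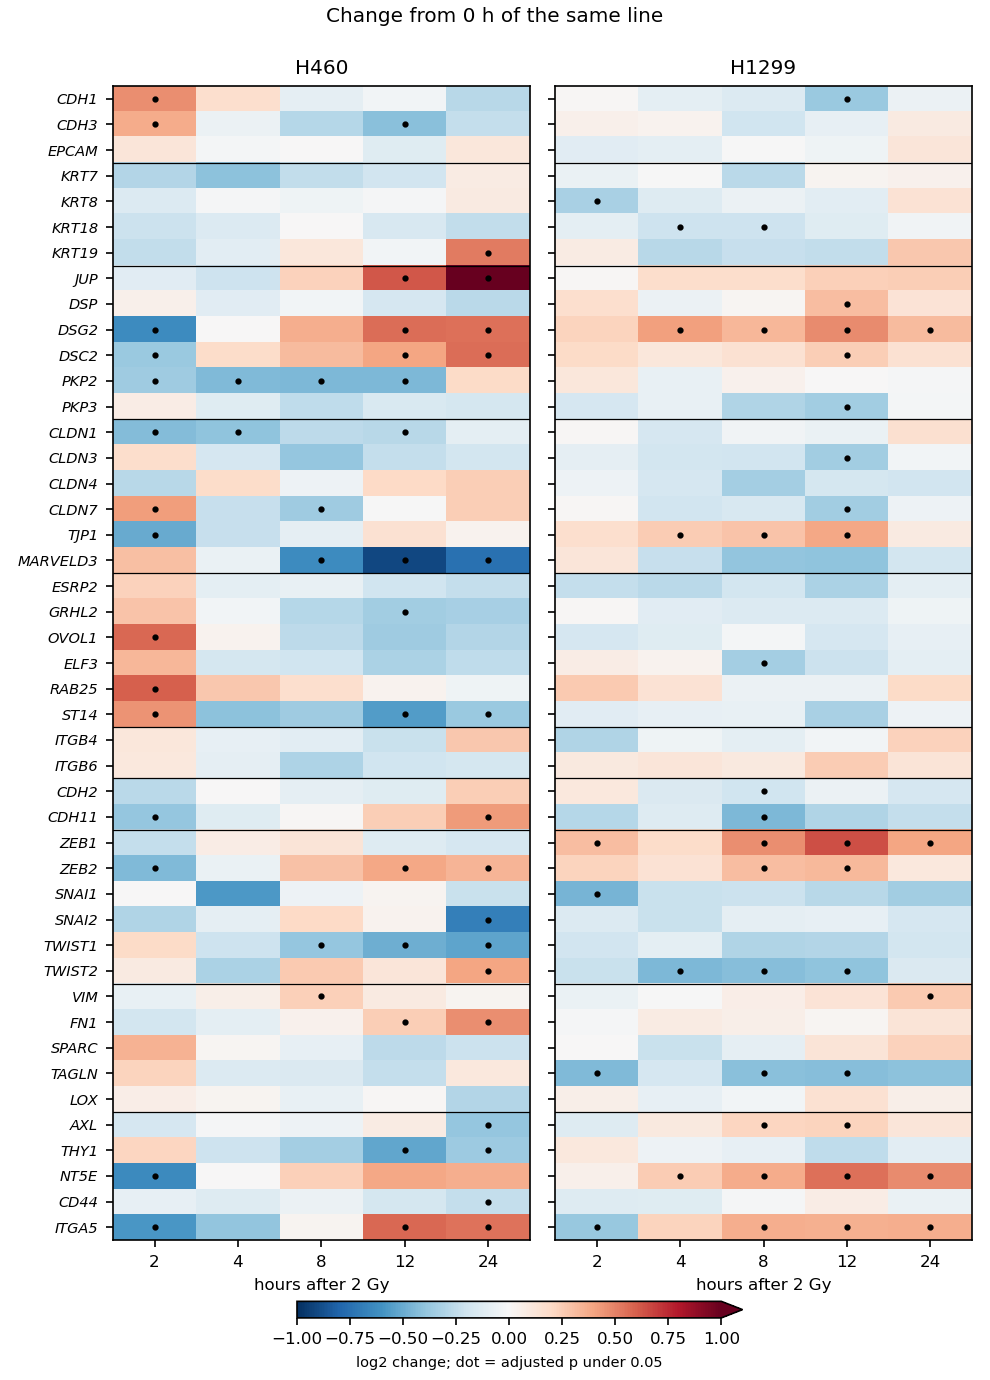
Log2 change of each gene (rows, grouped by role) from 0 h of the same line at 2 to 24 h (columns), with H460 on the left and H1299 on the right; red is a rise, blue a fall, and a dot marks an adjusted p under 0.05. JUP in H460 at 24 h, 1.14, is the largest rise and MARVELD3 in H460 at 12 h, -0.91, the largest fall.

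At 2 h in H460 the direction of a change went with the level of the gene. All 15 dim genes had a positive change, with a median of 0.29, while 22 of the other 30 had a negative one, with a median of -0.23. Over all genes the medians were 0.23 for genes up to that level and -0.16 for the rest, and H460 arrays at 2 h had the mean width of 2.84 against 3.34 at 0 h. At 12 h, when the mean width was 3.67, 13 of the 15 dim genes had a negative change. Across the 45 genes the correlation of change with level was -0.65 at 2 h and 0.41 at 12 h, and across all 18404 genes -0.49 and 0.27. These are descriptions across genes of the same arrays, with no test. Of the 15 calls at 2 h, 5 were made again after quantile normalization and 0 with array width in the model. CDH1 (0.47 ± 0.14, adjusted p = 0.00878), CDH3, CLDN7, OVOL1, RAB25 and ST14 were the 6 that rose at 2 h. CDH1 gave 0.22 after quantile normalization (adjusted p = 0.226) and 0.133 as adjusted p without H460 2 h replicate 3.

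**Figure D3:**
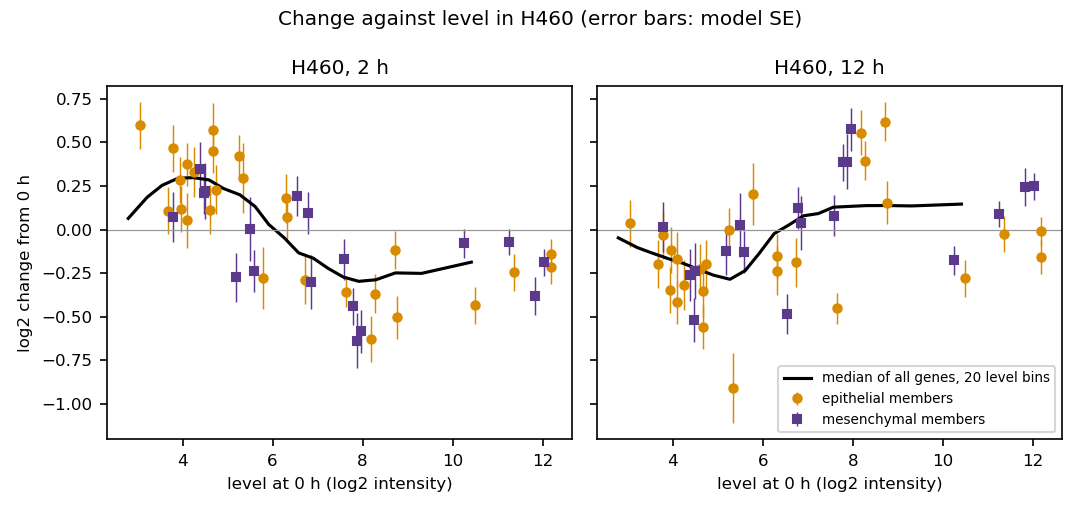
Log2 change from 0 h in H460 (y axis) against the level at 0 h in log2 intensity (x axis) at 2 h (left) and 12 h (right), 1 point per gene with the model standard error, circles for epithelial and squares for mesenchymal genes, and a line for the median of all genes in 20 bins of level. At 2 h dim genes lie above 0 and bright ones mostly below, along the line of all genes; at 12 h most dim genes lie below 0.

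The change in H460 minus the change in H1299 was tested at each time too. It passed for 12 genes at 2 h (28.6% of all genes), 3 genes at 4 h (8.54% of all genes), 2 genes at 8 h (10.1% of all genes), 3 genes at 12 h (8.68% of all genes) and 6 genes at 24 h (12.4% of all genes). Of those at 2 h, when H460 arrays were the narrowest, 4 were positive and 8 negative. The genes whose whole courses differed were JUP, DSC2 and PKP2 of the desmosome, CDH11, the transcription factors ZEB1 and TWIST2, the matrix genes FN1 and SPARC, and AXL. With quantile-normalized values the courses of JUP, PKP2, FN1 and AXL still differed, and with the width term those of JUP, PKP2, AXL, ZEB1, TWIST2 and CDH11.

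JUP showed the largest rise of the 45 genes. In H460 its levels at 0 h had a lowest value of 8.54, a median of 8.68 and a highest of 8.90, and the arrays read 8.34, 8.52 and 8.93 at 2 h, 8.56, 8.64 and 8.32 at 4 h, 8.95, 8.92 and 8.95 at 8 h, 9.26, 9.48 and 9.25 at 12 h and 9.82, 9.83 and 9.91 at 24 h. All arrays at 8, 12 and 24 h lay above every array at 0 h. The change was 0.62 ± 0.11 at 12 h (adjusted p = 0.000253) and 1.14 ± 0.11 at 24 h, or 2.21-fold (adjusted p = 3.97e-08), and at 24 h it was 0.996 after quantile normalization and 1.10 with array width in the model. In H1299 the arrays read 5.66, 5.57 and 5.91 at 12 h and 5.98, 5.65 and 5.56 at 24 h, and the changes of 0.24 ± 0.12 and 0.25 ± 0.12 did not pass (adjusted p = 0.142 and 0.215). The courses differed between the lines (adjusted p = 9.14e-05), with a difference in change of 0.89 ± 0.16 at 24 h (adjusted p = 0.000131). The gene that was already much higher in H460 thus rose there further.

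PKP2, a plakophilin of the desmosomal plaque, fell in H460 from 2 to 12 h. Its 0 h levels in H460 had a lowest value of 7.57, a median of 7.64 and a highest of 7.73, and the arrays read 7.32, 7.32 and 7.21 at 2 h, 7.21, 7.22 and 7.17 at 4 h, 7.18, 7.24 and 7.16 at 8 h, 7.30, 7.24 and 7.02 at 12 h and 7.88, 7.77 and 7.84 at 24 h. No array from 2 to 12 h reached the lowest at 0 h, and those at 24 h lay above the highest. The changes were -0.36 ± 0.088, -0.44 ± 0.088, -0.45 ± 0.088 and -0.45 ± 0.088 at 2, 4, 8 and 12 h (adjusted p = 0.00292, 0.00624, 0.00163 and 0.000603) and 0.19 ± 0.088 at 24 h (adjusted p = 0.105). At 2 h the change was -0.10 after quantile normalization (adjusted p = 0.448), at 8 h the adjusted p became, with the width term, 0.0607, and at 4 h it was 0.0521 without H460 4 h replicate 3. In H1299 no time point passed, with changes between -0.07 (4 h) and 0.11 (2 h). The courses differed between the lines (adjusted p = 2.07e-05), by -0.50 ± 0.10 at 8 h (adjusted p = 0.00109).

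The desmosomal cadherins rose late in H460, but none of their called rises there passed with array width in the model. DSG2 had lowest, median and highest levels of 7.96, 8.13 and 8.45 at 0 h and read 7.87, 7.69 and 7.13 at 2 h, 8.74, 8.75 and 8.75 at 12 h and 8.67, 8.90 and 8.66 at 24 h. It was below the 0 h arrays at 2 h (-0.63 ± 0.13) and above them at 12 h (0.55 ± 0.13) and 24 h (0.55 ± 0.13), with adjusted p of 0.000736, 0.00248 and 0.00249. DSC2 in H460 had lowest, median and highest levels of 8.04, 8.28 and 8.62 at 0 h and read 7.97, 7.95 and 7.82 at 2 h, 8.78, 8.67 and 8.57 at 12 h and 8.75, 8.92 and 8.83 at 24 h. Its arrays were below those of 0 h at 2 h, overlapped them at 12 h and were above them at 24 h. It changed by -0.37 ± 0.11, 0.40 ± 0.11 and 0.56 ± 0.11 at those times (adjusted p = 0.0106, 0.00872 and 0.000537). With array width in the model the 24 h changes were 0.24 for DSG2 and 0.20 for DSC2 and did not pass (adjusted p = 0.43 and 0.329), whereas both passed after quantile normalization (0.42 and 0.43). The 12 h changes were 0.21 for DSG2 and 0.005 for DSC2 with array width in the model (adjusted p = 0.558 and 0.989). Neither fall at 2 h passed with that term. Without H460 12 h replicate 1 the adjusted p of DSC2 at 12 h was 0.0562, and without H460 2 h replicate 3 that at 2 h was 0.0565.

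In H1299 DSG2 was called from 4 h on. It had lowest, median and highest levels of 6.79, 7.26 and 7.34 at 0 h and read 7.54, 7.62 and 7.58 at 4 h, 7.46, 7.46 and 7.60 at 8 h, 7.61, 7.71 and 7.61 at 12 h and 7.39, 7.42 and 7.66 at 24 h. All arrays at these later times lay above every 0 h array, with changes of 0.41 ± 0.097, 0.33 ± 0.097, 0.47 ± 0.097 and 0.32 ± 0.097 (adjusted p = 0.00451, 0.0147, 0.000671 and 0.0339). At 8 and 12 h the calls ended with array width in the model (adjusted p = 0.497 and 0.057). At 8 h the adjusted p was 0.0972 without H1299 8 h replicate 3, and the 24 h call was lost without H1299 0 h replicate 1 or any 1 of the arrays at 24 h. The DSG2 courses were not shown to differ between the lines (adjusted p = 0.178), although the change at 2 h did (-0.85 ± 0.17, adjusted p = 0.00019) and those at 4 h (adjusted p = 0.124) and 8 h (0.943) were not shown to. DSC2 courses differed (adjusted p = 0.0428), but not after quantile normalization (0.0522), with array width in the model (0.185) or without any 1 of 16 arrays of the 42. PKP3 and DSP changed in H1299 at 12 h by -0.35 ± 0.12 and 0.31 ± 0.10 (adjusted p = 0.0292 and 0.0253), and neither passed with array width in the model. The PKP3 call was lost without any 1 of 4 arrays and the DSP call without H1299 12 h replicate 1 or 2. PKP3 read 4.89, 5.06 and 5.14 at 12 h in H1299, overlapping 5.05, 5.39 and 5.69 as lowest, median and highest at 0 h.

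**Figure D4:**
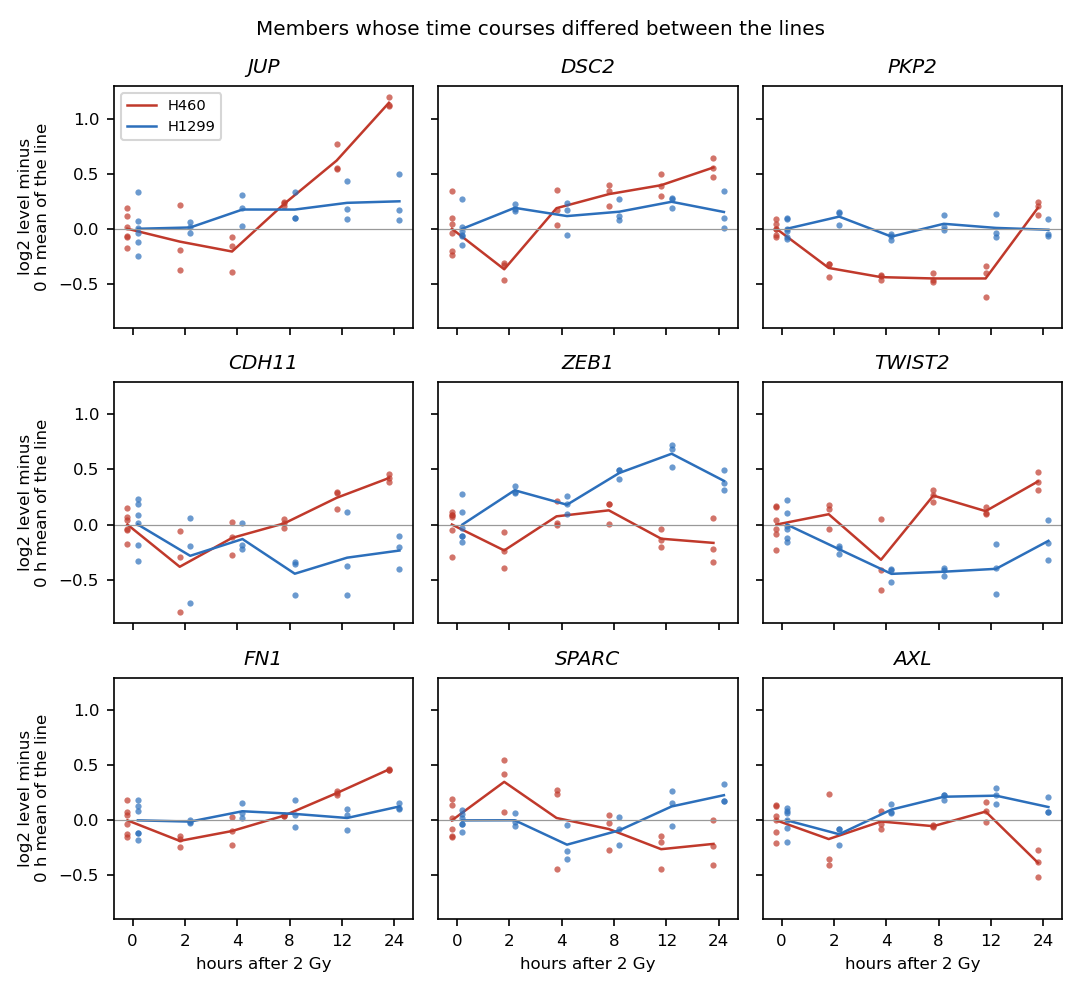
Level of each array minus the 0 h mean of its line in log2 units (y axis) against hours after 2 Gy (x axis, times evenly spaced and not to scale), for the 9 genes whose courses differed between the lines; lines join the means of H460 (red) and H1299 (blue). JUP, DSC2, CDH11 and FN1 end above 0 in H460, PKP2 dips in H460 from 2 to 12 h, and ZEB1 stands above 0 in H1299 at every time after irradiation.

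The other epithelial genes moved less or less firmly. KRT19 in H460 read 11.83, 11.90 and 11.92 at 24 h, above all arrays at 0 h (11.12, 11.37 and 11.75 as lowest, median and highest), a rise of 0.52 ± 0.10 (adjusted p = 0.000584) that was 0.33 after quantile normalization and 0.28 with array width in the model (adjusted p = 0.203). In H1299 no time point passed for KRT19. KRT8 fell in H1299 at 2 h, where it read 10.47, 10.57 and 10.42 beside 10.64, 10.82 and 10.90 at 0 h, by -0.32 ± 0.068 (adjusted p = 0.00265). Its curve over the day in H1299 passed (adjusted p = 0.03), but not without H1299 24 h replicate 1 (0.104) or replicate 2 (0.196). KRT18 in H1299 was -0.21 ± 0.071 at 4 h and -0.20 ± 0.071 at 8 h (adjusted p = 0.0433 and 0.0369), neither of which passed after quantile normalization, and the calls were lost without any 1 of 7 and of 5 arrays.

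CLDN1 fell in H460 at 2 h (-0.43 ± 0.11) and 4 h (-0.40 ± 0.11), with adjusted p of 0.00291 (0.0591 after quantile normalization) and 0.0402, and its arrays at 4 h, 9.99, 10.16 and 10.15, lay below all those at 0 h. It was also lower at 12 h (-0.28 ± 0.11, adjusted p = 0.0472), a call lost without any 1 of 6 arrays. The 4 h call was lost without any 1 of the 3 arrays at 4 h, and without H460 0 h replicate 1 or 2. MARVELD3 had the largest fall of the 45 genes. In H460 it had lowest, median and highest levels of 4.69, 5.32 and 5.91 at 0 h and read 4.57, 4.58 and 4.97 at 8 h, 4.34, 4.53 and 4.40 at 12 h and 4.98, 4.33 and 4.45 at 24 h. The 0 h arrays were widely spread, and those at 12 h lay below all of them. The later changes were -0.63 ± 0.20, -0.91 ± 0.20 and -0.75 ± 0.20 (adjusted p = 0.0339, 0.00168 and 0.00713). With array width in the model the 12 h change was -0.15 (adjusted p = 0.787), the 24 h change was -0.05 (adjusted p = 0.938) and the 8 h change turned to 0.057. MARVELD3 was not counted as dim only because of its mean of 5.63 at 2 h in H460. Its means in all other groups lay below 5.59. The 24 h call was lost without H460 24 h replicate 2 (adjusted p = 0.0693), and the 8 h call without each of 5 arrays. In H1299 the MARVELD3 curve passed (adjusted p = 0.0333) with no single time point, and not after quantile normalization (0.0991), with array width in the model (0.964) or without any 1 of 5 arrays. Among these was H1299 0 h replicate 2 (adjusted p = 0.0819 without it), which read 5.50 beside 4.58 to 4.76 on the other 5 at 0 h.

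TJP1 rose in H1299, where it had lowest, median and highest levels of 9.15, 9.43 and 9.56 at 0 h and read 9.64, 9.69 and 9.67 at 4 h, 9.66, 9.73 and 9.72 at 8 h and 9.71, 9.91 and 9.77 at 12 h, with no overlap between these times and 0 h. The changes were 0.25 ± 0.080, 0.29 ± 0.080 and 0.39 ± 0.080 (adjusted p = 0.0305, 0.00965 and 0.000674). With array width in the model those at 8 and 12 h did not pass (adjusted p = 0.371 and 0.0531), and the 4 h call was lost without any 1 of the arrays at 4 h. Of the dim epithelial genes, OVOL1 in H460 had lowest, median and highest levels of 4.19, 4.76 and 4.85 at 0 h and read 5.44, 4.94 and 5.34 at 2 h and 4.45, 4.36 and 4.31 at 24 h. ST14 in H460 had lowest, median and highest levels of 4.23, 4.74 and 4.87 at 0 h and read 5.08, 5.11 and 5.20 at 2 h and 4.22, 4.26 and 3.88 at 12 h. Both were higher at 2 h, by 0.57 ± 0.15 and 0.45 ± 0.13, and ST14 was lower at 12 h, by -0.56 ± 0.13, along the trend of dim genes on these arrays. With array width in the model OVOL1 at 2 h gave 0.07 and ST14 at 12 h -0.27 (adjusted p = 0.963 and 0.44). CDH1 in H1299 read 3.23, 3.48 and 3.31 at 12 h, beside 3.43, 3.70 and 4.06 at 0 h, a change of -0.37 ± 0.11 (adjusted p = 0.0161) that did not pass after quantile normalization (adjusted p = 0.0527) or without H1299 12 h replicate 1 (0.0809) or replicate 3 (0.056).

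Among the transition transcription factors, ZEB1 rose in H1299. Its levels at 0 h there had a lowest level of 6.69, a median of 6.78 and a highest of 7.12, and the arrays read 7.20, 7.13 and 7.14 at 2 h, 6.94, 7.10 and 7.03 at 4 h, 7.34, 7.26 and 7.34 at 8 h, 7.57, 7.53 and 7.37 at 12 h and 7.22, 7.16 and 7.34 at 24 h. Every array at 2, 8, 12 and 24 h lay above all those at 0 h. The changes were 0.31 ± 0.084, 0.47 ± 0.084, 0.64 ± 0.084 and 0.40 ± 0.084 at these times (adjusted p = 0.0148, 0.000226, 3.35e-06 and 0.0024), the largest being 1.56-fold, and the one at 4 h (0.18 ± 0.084) did not pass. All 4 also passed after quantile normalization and with array width in the model, and the 2 h change had an adjusted p of 0.0547 without H1299 2 h replicate 3. In H460 ZEB1 read 5.52, 5.19 and 5.34 at 2 h, 5.44, 5.54 and 5.38 at 12 h and 5.24, 5.65 and 5.36 at 24 h, and no time point passed. The courses differed between the lines (adjusted p = 0.00647), by -0.77 ± 0.14 at 12 h (adjusted p = 0.000324), but after quantile normalization the adjusted p of the courses was 0.369.

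ZEB2 rose in both lines at 12 h. In H1299 it had lowest, median and highest levels of 6.54, 6.65 and 6.87 at 0 h and read 6.97, 7.01 and 7.01 at 8 h and 6.95, 7.04 and 7.04 at 12 h, both above all 0 h arrays, with changes of 0.31 ± 0.078 and 0.32 ± 0.078 (adjusted p = 0.00458 and 0.00275). In H460 it fell at 2 h, by 0.44, and rose by 0.39 ± 0.10 at 12 h and 0.34 ± 0.10 at 24 h (adjusted p = 0.00223, 0.00732 and 0.0168). None of the H460 changes of ZEB2 passed after quantile normalization, and in H1299 neither passed with array width in the model (adjusted p = 0.0725 and 0.0597). The 24 h change in H460 was also lost without H460 24 h replicate 1 (0.0725) or replicate 2 (0.0912).

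SNAI2, the factor higher in H460, fell there at 24 h. It had lowest, median and highest levels of 6.49, 6.83 and 7.23 at 0 h and read 6.91, 7.14 and 7.11 at 8 h, 6.60, 7.11 and 6.97 at 12 h and 6.25, 6.38 and 5.88 at 24 h, and the arrays at 24 h lay below all those at 0 h. The change at 24 h was -0.69 ± 0.15, a factor of 1.61 (adjusted p = 0.00182), and -0.79 after quantile normalization. The curve over the day (adjusted p = 0.00663) rested on 24 h: its adjusted p was 0.0668 without H460 24 h replicate 3 and 0.615 without the 24 h arrays. In H1299 SNAI2 changed by -0.17 ± 0.17 at 24 h (adjusted p = 0.634), and a difference between the lines was not shown (adjusted p = 0.0949). SNAI1 did not pass in H460 at any time and was -0.47 ± 0.16 at 2 h in H1299 (adjusted p = 0.0457), a call lost without any 1 of 6 arrays.

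The TWIST paralogs were called in different lines, with no test of one paralog against the other. TWIST1 fell in H460, where it had lowest, median and highest levels of 6.35, 6.53 and 6.68 at 0 h and read 6.21, 6.02 and 6.24 at 8 h, 6.05, 5.999 and 6.12 at 12 h and 6.15, 5.90 and 5.998 at 24 h, all below the lowest at 0 h. The changes were -0.38 ± 0.11, -0.49 ± 0.11 and -0.53 ± 0.11 (adjusted p = 0.0232, 0.00257 and 0.00122). They also passed after quantile normalization, but not with array width in the model (adjusted p = 0.704, 0.322 and 0.145), and the one at 8 h was lost without any 1 of the arrays at 8 h. In H1299 TWIST1 changed by -0.30 ± 0.13 at 8 h and -0.29 ± 0.13 at 12 h and did not pass (adjusted p = 0.0911 and 0.0885), and its courses were not shown to differ between the lines (adjusted p = 0.142). TWIST2 fell in H1299, where it had lowest, median and highest levels of 6.69, 6.82 and 7.06 at 0 h and read 6.32, 6.43 and 6.44 at 4 h, 6.43, 6.37 and 6.45 at 8 h and 6.67, 6.21 and 6.45 at 12 h, all below the lowest at 0 h. The changes of -0.45 ± 0.098, -0.43 ± 0.098 and -0.40 ± 0.098 passed (adjusted p = 0.00216, 0.00225 and 0.00311), also after quantile normalization and with array width in the model, while at 12 h the adjusted p was 0.0606 without H1299 12 h replicate 2. In H460 TWIST2 rose at 24 h, where it read 7.09, 7.16 and 7.25, by 0.39 ± 0.12 (adjusted p = 0.0164). That rise did not pass after quantile normalization (0.0936), without H460 24 h replicate 2 (0.0586) or without replicate 3 (0.0772). TWIST2 courses differed between the lines (adjusted p = 0.014, and 0.0551 after quantile normalization), by 0.69 ± 0.15 at 8 h (adjusted p = 0.00276).

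Of the cadherins and matrix genes, those high in H460, FN1 and CDH11, were called higher there at 24 h. FN1 in H460 had lowest, median and highest levels of 11.89, 12.04 and 12.22 at 0 h and read 12.28, 12.30 and 12.26 at 12 h and 12.50, 12.49 and 12.49 at 24 h, both above all arrays at 0 h, with changes of 0.25 ± 0.077 and 0.46 ± 0.077 (adjusted p = 0.0166 and 7.53e-05). The 24 h change also passed after quantile normalization and with array width in the model, whereas the 12 h change passed under neither and had an adjusted p of 0.0526 without H460 12 h replicate 1 and 0.0687 without replicate 2. CDH11 read 12.29, 12.26 and 12.22 at 24 h in H460, above all arrays at 0 h (11.66, 11.83 and 11.99 as lowest, median and highest), a rise of 0.42 ± 0.11 (adjusted p = 0.00536) that was 0.20 after quantile normalization (adjusted p = 0.177). The CDH11 rise did not pass with array width in the model either. Both courses differed between the lines, with adjusted p of 0.0139 for FN1 and 0.0127 for CDH11, by 0.34 ± 0.11 and 0.66 ± 0.20 at 24 h (adjusted p = 0.0334 and 0.0227). The CDH11 difference was not called after quantile normalization (adjusted p = 0.241), nor the FN1 difference with array width in the model (0.0502). In H1299, where CDH11 was dim, it was -0.45 ± 0.16 at 8 h (adjusted p = 0.0465), a call lost without any 1 of 7 arrays, and FN1 passed at no time. CDH2 in H1299 was -0.20 ± 0.063 at 8 h (adjusted p = 0.0234), with 0.136 without H1299 8 h replicate 2 and 0.0715 without replicate 3.

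VIM rose in H1299 at 24 h, where it read 12.24, 12.22 and 12.14 beside 11.72, 11.98 and 12.02 at 0 h, by 0.26 ± 0.061 (adjusted p = 0.00588), and also passed after quantile normalization and with array width in the model. In H460 it was 0.24 ± 0.077 at 8 h (adjusted p = 0.0338) and did not pass after quantile normalization or without any 1 of 6 arrays. TAGLN in H1299 had lowest, median and highest levels of 4.82, 5.29 and 5.48 at 0 h and read 5.03, 4.81 and 4.55 at 2 h, 4.84, 4.72 and 4.90 at 8 h and 4.90, 4.60 and 4.94 at 12 h, and every time overlapped 0 h. Its changes there were -0.44 ± 0.14, -0.42 ± 0.14 and -0.43 ± 0.14 (adjusted p = 0.0332, 0.0293 and 0.0221). Those at 8 and 12 h did not pass after quantile normalization, and without H1299 12 h replicate 2 the last had an adjusted p of 0.168. The calls at 2 and 8 h were lost without any 1 of 4 and of 5 arrays. SPARC passed at no single time in either line, and its courses differed between the lines (adjusted p = 0.0405), though not after quantile normalization (0.187) or without any 1 of 9 arrays of the 42. It read 4.45, 4.79 and 4.92 at 2 h and 4.38, 3.97 and 4.14 at 24 h in H460, and 4.88, 4.76 and 4.80 at 2 h and 4.98, 5.15 and 4.99 at 24 h in H1299. LOX passed at no time in either line, with changes between -0.30 (H460, 24 h) and 0.15 (H1299, 12 h).

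The surface protein NT5E, already far higher in H1299, rose there. At 0 h its levels in H1299 had a lowest level of 10.87, a median of 11.22 and a highest of 11.31, and the arrays read 11.44, 11.43 and 11.42 at 4 h, 11.57, 11.52 and 11.56 at 8 h, 11.66, 11.78 and 11.73 at 12 h and 11.61, 11.62 and 11.71 at 24 h. All of these lay above every array at 0 h. The changes were 0.25 ± 0.074, 0.37 ± 0.074, 0.55 ± 0.074 and 0.47 ± 0.074 (adjusted p = 0.0185, 0.000625, 4.93e-06 and 0.000107) and also passed after quantile normalization and with array width in the model. The 4 h call was lost without any 1 of the arrays at 4 h. In H460 NT5E had lowest, median and highest levels of 7.51, 7.88 and 8.30 at 0 h and read 7.68, 7.30 and 6.74 at 2 h, 8.28, 8.24 and 8.28 at 12 h and 8.07, 8.37 and 8.29 at 24 h, with overlap at each time. It had a change of -0.64 ± 0.16 at 2 h (adjusted p = 0.00274) that was 0.18 with array width in the model and had an adjusted p of 0.0584 without H460 2 h replicate 3. The later changes in H460, 0.39 ± 0.16 at 12 h and 0.37 ± 0.16 at 24 h, did not pass (adjusted p = 0.0557 and 0.079). The courses were not shown to differ between the lines (adjusted p = 0.86).

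The AXL changes at 24 h differed between the lines, with a called fall in H460 and no call in H1299. In H460 it had lowest, median and highest levels of 7.39, 7.62 and 7.73 at 0 h and read 7.76, 7.68 and 7.58 at 12 h and 7.08, 7.33 and 7.22 at 24 h, the last below all arrays at 0 h. The change at 24 h was -0.38 ± 0.12 (adjusted p = 0.0168, and 0.0844 with array width in the model). In H1299 it had lowest, median and highest levels of 11.14, 11.37 and 11.45 at 0 h and read 11.52, 11.56 and 11.56 at 8 h and 11.48, 11.63 and 11.57 at 12 h, both above all arrays at 0 h, with small rises of 0.21 ± 0.064 and 0.22 ± 0.064 (adjusted p = 0.0163 and 0.0104). At 24 h in H1299 the arrays overlapped those at 0 h, and the change of 0.12 ± 0.064 did not pass (adjusted p = 0.273). The courses differed between the lines (adjusted p = 0.0291), by -0.51 ± 0.13 at 24 h (adjusted p = 0.00687), also after quantile normalization and with array width in the model, but not without H460 24 h replicate 1 or 3 or H1299 24 h replicate 3. Without H460 24 h replicate 1 the H460 change itself had an adjusted p of 0.0962, and without H1299 12 h replicate 2 the 12 h rise had 0.082. At 8 h the adjusted p was 0.0612 without H1299 8 h replicate 2 and 0.0706 without replicate 3, and neither rise passed with array width in the model.

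ITGA5 was called lower at 2 h and higher later in both lines. In H460 it had lowest, median and highest levels of 7.69, 7.95 and 8.35 at 0 h and read 7.20, 7.41 and 7.55 at 2 h, 8.55, 8.63 and 8.45 at 12 h and 8.58, 8.47 and 8.48 at 24 h. In H1299 it had lowest, median and highest levels of 7.71, 8.23 and 8.33 at 0 h and read 7.66, 7.97 and 7.74 at 2 h, 8.42, 8.57 and 8.61 at 8 h, 8.50, 8.63 and 8.44 at 12 h and 8.43, 8.52 and 8.64 at 24 h. No later time shown overlapped 0 h other than 2 h in H1299. The changes in H460 were -0.58 ± 0.12, 0.58 ± 0.12 and 0.54 ± 0.12 at 2, 12 and 24 h (adjusted p = 0.000851, 0.00127 and 0.00182). In H1299 they were -0.38 ± 0.10, 0.37 ± 0.10, 0.36 ± 0.10 and 0.36 ± 0.10 at 2, 8, 12 and 24 h (adjusted p = 0.0147, 0.0105, 0.0108 and 0.0196). None of the H460 changes passed with array width in the model (adjusted p = 0.606, 0.136 and 0.0883), and that at 2 h was -0.33 after quantile normalization (0.0509), whereas the dip and the 24 h rise in H1299 did. Each call in H1299 was lost without 1 of the 3 arrays of its time: replicate 3 at 8 h (0.0694), replicate 2 at 12 h (0.0823), replicates 1 and 3 at 2 h and replicates 2 and 3 at 24 h. At 4 h the change was -0.39 ± 0.12 in H460 and 0.22 ± 0.10 in H1299, and neither passed (adjusted p = 0.0812 and 0.153). The difference between these changes, -0.62 ± 0.16, did pass (adjusted p = 0.014). The whole courses of ITGA5 were not shown to differ between the lines (adjusted p = 0.402).

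THY1, dim in both lines, read 3.93, 4.01 and 3.89 at 12 h in H460, below all arrays at 0 h (4.26, 4.45 and 4.65), a change of -0.52 ± 0.12 (adjusted p = 0.00314) that was -0.29 with array width in the model (adjusted p = 0.416). At 24 h its arrays read 3.94, 3.99 and 4.37 from lowest to highest and overlapped 0 h, and the change of -0.36 ± 0.12 (adjusted p = 0.0311) was not called after quantile normalization (0.254), with array width in the model (0.677) or without any 1 of 4 arrays. CD44 fell slightly in H460 at 24 h, to 9.99, 10.04 and 10.01, against 10.12, 10.24 and 10.44 as lowest, median and highest at 0 h, by -0.24 ± 0.084 (adjusted p = 0.0354). That fall was -0.36 after quantile normalization and -0.44 with array width in the model, and it was lost without any 1 of 6 arrays.

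The remaining calls at single times were as follows. CLDN7 was -0.36 ± 0.12 at 8 h in H460 and -0.35 ± 0.13 at 12 h in H1299 (adjusted p = 0.0476 and 0.0477), CLDN3 -0.35 ± 0.13 at 12 h in H1299 (0.0455) and ELF3 -0.34 ± 0.11 at 8 h in H1299 (0.0238). In H460, GRHL2 was -0.35 ± 0.13 and CDH3 -0.42 ± 0.12 at 12 h (adjusted p = 0.0438 and 0.0119), and TJP1 -0.50 ± 0.12 at 2 h (0.00288). None of these 7 changes passed after quantile normalization or with array width in the model, and all but TJP1 in H460 were lost without some single array. CDH11 in H460 was -0.38 ± 0.11 at 2 h (adjusted p = 0.0075), and ST14 was -0.37 ± 0.13 at 24 h in H460 (0.0296), again with no call after either adjustment. DSC2 in H1299 was 0.24 ± 0.092 at 12 h (adjusted p = 0.0471), a call lost after quantile normalization and without any 1 of 8 arrays. RAB25 in H460 was 0.60 ± 0.13 at 2 h (adjusted p = 0.00144) and passed after quantile normalization (0.38), but not with array width in the model. EPCAM, KRT7, CLDN4, ESRP2, ITGB4, ITGB6, SPARC and LOX passed at no single time in either line.

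Further genes of the same pathways also included higher and lower members at 0 h, when 26% of all genes were higher and 29.1% lower in H460. Of 36 other junction and polarity genes measured (39 listed), 12 were higher and 17 lower in H460, with a median of -0.04. NECTIN3 (-2.21 ± 0.10) and NECTIN2 (-1.82 ± 0.10), adhesion molecules of adherens junctions, were lower, and PERP (1.38 ± 0.078), a desmosome protein, and MARVELD2 (1.76 ± 0.11), the tricellulin of tight junctions, higher. Of 25 other epithelial genes (29 listed), 7 were higher and 6 lower, with LSR (-1.33 ± 0.13), a tricellular junction receptor, lower and the transcription factors KLF5 (0.87 ± 0.10) and EHF (0.65 ± 0.12) and the keratin KRT80 (0.69 ± 0.099) higher. Of 39 other mesenchymal genes (45 listed), 15 were higher and 13 lower. ITGA3 (-3.10 ± 0.078), a laminin receptor subunit, and TPM1 (-2.48 ± 0.11), a tropomyosin, were lower, and ANTXR1 (2.57 ± 0.076), a collagen-binding receptor, and FBN2 (2.03 ± 0.072), a fibrillin, higher. All 12 passed with adjusted p at or below 0.0001. The time courses passed for 17 of the 36 junction genes in H460 and 17 in H1299, for 8 and 4 of the 25 epithelial genes and for 24 and 20 of the 39 mesenchymal genes, beside 41.9% of all genes in H460 and 36.5% in H1299. Courses of these further genes were not computed after quantile normalization or with array width in the model.

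Markers of other cell types were measured on the same arrays. At 0 h the 5 lung epithelial markers measured (NKX2-1, SFTPB, SFTPC, NAPSA and SCGB1A1) did not pass between lines, with means between 4.13 and 5.39 in H460 and between 3.93 and 5.07 in H1299. All 5 passed the time course in H460 and 1 in H1299 (41.9% and 36.5% of all genes), and their changes at 24 h in H460 lay between -0.50 (NAPSA) and -0.19 (NKX2-1). Their 0 h means lay below the 5.59 of the dim range. H460 arrays were wider at 24 h than at 0 h, with mean widths of 3.64 and 3.34. The changes of the markers in this paragraph were not computed after quantile normalization or with array width in the model. Of the 6 endothelial markers 3 passed the course in H460 and 2 in H1299, and of the 5 leukocyte markers 1 in each. The leukocyte gene PTPRC averaged 2.68 in H460 and 2.66 in H1299, and CD14 5.93 and 4.77. The summed level on the log2 scale ran from 7.31 to 7.59 in H460 and from 7.52 to 7.69 in H1299 for the 6 fibroblast markers, from 6.58 to 6.99 and from 6.05 to 6.47 for the 5 leukocyte markers, and from 6.998 to 7.39 and from 6.77 to 7.10 for the 6 endothelial markers. Of the 6 fibroblast markers, 3 did not overlap at 0 h, beside 35.3% of all genes. Of these, PDGFRB (1.15 ± 0.11) and LUM (1.008 ± 0.14) were higher and FBLN1 (-1.04 ± 0.094) lower in H460 (adjusted p = 1.64e-08, 5.06e-06 and 9.18e-09). DCN averaged 2.97 in H460 and 2.92 in H1299. Of the 6, LUM passed the course in H460 and 0 did in H1299 (limma, lowest adjusted p = 0.115, PDGFRA), and LUM rose in H460 at 24 h by 1.18 ± 0.19 (adjusted p = 4.67e-05). The part of other cells in these results was not tested.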

How the data were processed

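Expression was measured on Affymetrix whole-transcript arrays from 100 ng of total RNA, per the labels' protocols, in 42 samples of 12 groups. The authors deposited 1 table of log2 values with 32321 rows; the normalization and summary method is not given in the sources used here, and the array medians of 5.97 to 6.18 lay close together. Of the rows, 19158 carried 1 symbol in the platform annotation (updated through Entrez identifiers), 1388 carried several and 11775 were outside the probe table; 754 further rows of a gene were left out.

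Tests used limma 3.58.1 in R 4.3.3 (lmFit, eBayes with trend) with Benjamini-Hochberg adjustment over 18404 genes and a threshold of 0.05. The lines were compared at 0 h, each later time with 0 h of its line, hours were fitted as a quadratic curve per line, and curves were compared in 1 fit of all 42 arrays. Errors of changes are model standard errors; the number of arrays, 6 or 3 per group, limits the precision. The labels do not say that replicates came from separate cultures beyond calling them biological, so p-values measure the spread between these samples.

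The genes and the other gene lists were chosen with earlier results of these data known. Values by array are given for the 12 genes with the largest 0 h difference, for up to 12 genes per line with the largest change among called courses, and for those whose courses differ between lines. VIM, CLDN1 and CD44 are also followed over time, chosen after their values were seen. The promoter motif count is a description with no test. The tests were checked on simulated data with independent normal noise for each gene. Those data held no differences of array width, so the check cannot speak to calls that depended on width. Alternatives covered the filter on dim genes, quantile normalization, array centring, array width as a covariate, the variance prior, the form of the curve, the 0 h arrays used and leaving out each array. A replicate number was used as a block only as an alternative. Deviations of arrays with the same number correlated between -0.37 and 0.20 within a line, and between -0.23 and 0.37 across lines at 0 h. Pairing by number was thus not shown, and such correlations cannot exclude it.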

Additional observations from a re-analysis of the deposited data

Results flagged for a closer look

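In 10 of 90 groups of 6 arrays at 0 h, the gap from 1 array to its nearest neighbour was above Dixon's critical share of the range. Chance alone sets apart about 1 in 20 groups. The share over all genes was not computed, and flags on the same array are not independent, since its genes share its width. H460 0 h replicate 1 stood apart in 3 genes. CDH3 read 4.41 on H460 0 h replicate 1, against 3.98 to 4.09 on the other 5. KRT8 read 12.50 on H460 0 h replicate 1, against 12.06 to 12.18 on the other 5. KRT18 read 11.75 on H460 0 h replicate 1, against 12.12 to 12.34 on the other 5. The rows of KRT8 and KRT18 thus lay apart in opposite directions, and the KRT18 row could also read pseudogene copies. H460 0 h replicate 6 stood apart in OVOL1, with 4.19 on H460 0 h replicate 6, against 4.64 to 4.85 on the other 5, and in ST14, with 4.23 on H460 0 h replicate 6, against 4.64 to 4.87 on the other 5. EPCAM read 3.40 on H1299 0 h replicate 1, against 3.67 to 3.81 on the other 5.

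H1299 0 h replicate 2, the narrowest array of its group with an interquartile range of 3.24, stood apart in 4 genes. MARVELD3 read 5.50 on H1299 0 h replicate 2, against 4.58 to 4.76 on the other 5, and ESRP2 read 5.001 on H1299 0 h replicate 2, against 4.51 to 4.59 on the other 5. VIM read 11.72 on H1299 0 h replicate 2, against 11.95 to 12.02 on the other 5, and ITGA5 read 7.71 on H1299 0 h replicate 2, against 8.16 to 8.33 on the other 5. The 2 dimmer genes were thus high and the 2 brighter ones low on this array.

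The courses of 9 genes differed between H460 and H1299 by the test of the difference itself (limma, adjusted p). The values were 2.07e-05 for PKP2, 9.14e-05 for JUP, 0.00647 for ZEB1, 0.0127 for CDH11, 0.0139 for FN1, 0.014 for TWIST2, 0.0291 for AXL, 0.0405 for SPARC and 0.0428 for DSC2.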

How the results depend on the processing

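All 32 calls at 0 h kept their direction under every alternative run; 31 were also called after quantile normalization, 29 with array width in the model and 28 with 0 h replicates 1 to 3 alone and 28 with 0 h replicates 4 to 6 alone. Time courses depended more on the processing. With array width in the model the called courses numbered 10 of 45 in H460 (19 as reported) and 7 in H1299 (15 as reported). Changes called in H460 then came to 0 (2 h), 0 (8 h), 3 (12 h) and 4 (24 h), and those in H1299 to 10 (2 h), 5 (8 h) and 5 (12 h). In H460, 3 changes turned to the other sign under that setting: DSC2 at 2 h (0.22), NT5E at 2 h (0.18) and MARVELD3 at 8 h (0.057). Quantile normalization gave 8 calls in H460 and 9 in H1299 at 2 h. A mean per time point in place of the curve called 30 courses in H460 and 22 differences between lines. At 4 h, omitting the variance trend left 1 call in H460 and 3 in H1299, and centring arrays on their medians left 1 in H460. Without the dim genes 9 were called at 8 h in H460. A single fit of all 42 arrays gave H460 5 calls (4 h) and 13 (8 h), and H1299 2 (2 h), 2 (4 h), 7 (8 h) and 3 (24 h). With 0 h replicates 1 to 3 alone 9 were called at 8 h in H460. With 0 h replicates 4 to 6 alone H460 had 0 calls (4 h) and 2 (8 h), and H1299 2 (2 h) and 3 (4 h). The shares of all genes called under these alternatives, or with an array left out, were not computed, and the cause was not tested.

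The replicate block, with numbers not shown to pair the arrays, moved the calls at 8 h in H460 to 8 (5 as reported). Under it 72 of 95 called changes, 36 of 43 called courses and 32 of 32 calls at 0 h remained called.

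Leaving out 1 array at a time gave 31 to 35 calls at 0 h (17 to 21 higher, 13 to 15 lower), 15 to 25 courses in H460, 12 to 17 in H1299 and 7 to 13 differences between lines. At 2, 4, 8, 12 and 24 h it gave 13 to 19, 0 to 5, 1 to 10, 10 to 16 and 10 to 20 calls in H460, and 1 to 7, 2 to 6, 5 to 13, 6 to 14 and 3 to 6 in H1299. A count moved by over 1.5 times at 4 h in H460 (2 as reported) without 0 h replicate 1 (1) or 4 h replicate 1 (1), 2 (5) or 3 (0). At 8 h in H460 (5 as reported) it did so without 0 h replicate 2 (2), 5 (2) or 6 (10) or 8 h replicate 1 (1), 2 (1) or 3 (2), and at 24 h (16 as reported) without 24 h replicate 2 (10). In H1299 it did so at 2 h (5 as reported) without 0 h replicate 1 (3) or 4 (3) or 2 h replicate 2 (3) or 3 (1), and at 4 h (5 as reported) without 4 h replicate 1 (2), 2 (3) or 3 (2). Likewise it moved at 8 h (13 as reported) without 8 h replicate 2 (8) or 3 (5), at 12 h (15 as reported) without 12 h replicate 2 (6), and at 24 h (5 as reported) without 24 h replicate 2 (3) or 3 (3). Signal over background could not be judged, since the table came without detection calls.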

Other observations

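Further genes of the same pathways were also called at 24 h in H460, as were genes at large. At 24 h in H460, 11 of 39 other mesenchymal genes were higher than at 0 h and 4 lower, 8 of 36 other junction and polarity genes higher and 1 lower, and 2 of 25 other epithelial genes higher and 2 lower (of all genes 16.2% higher and 12.4% lower). Chosen after their values were seen, ACTA2, the smooth muscle actin of contractile cells, rose by 1.88 ± 0.13 (adjusted p = 2.13e-10), and S100A4, a calcium-binding protein of motile cells, by 1.43 ± 0.20 (adjusted p = 7.77e-06). DSC3, a desmosomal cadherin, rose by 1.02 ± 0.18 (adjusted p = 0.000132), CALD1, the actin-binding caldesmon, by 0.84 ± 0.13 (adjusted p = 2.79e-05), and ITGA2, a collagen receptor subunit, by 0.78 ± 0.15 (adjusted p = 0.000481). At 12 h in H1299, 11 of the mesenchymal genes were higher and 3 lower, and 9 of the junction genes higher and 4 lower (of all genes 16.6% higher and 13.1% lower). There ACTA2 was 0.24 ± 0.092 (adjusted p = 0.0524) and S100A4 -0.35 ± 0.26 (adjusted p = 0.32). The changes of these further genes were not computed after quantile normalization or with array width in the model. Of the 16 calls at 24 h in H460 among the genes followed in the Results, 4 passed under both settings.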
